A study of Mus musculus with 2 samples.

Results

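The 68 genes described here are nuclear-encoded subunits of the mitochondrial respiratory chain. They were taken from the 27998 genes of the deposited table by a rule on names, set with earlier results of these data known. The rule takes symbols beginning with Ndufa, Ndufb, Ndufc, Ndufs, Ndufv, Uqcr, Cox4i, Cox5, Cox6, Cox7 or Cox8, together with Sdha, Sdhb, Sdhc and Sdhd, without pseudogenes and without the Ndufaf assembly factors. Of the 68, 36 belong to complex I, 4 to complex II, 8 to complex III and 18 to complex IV. The name rule leaves out Cyc1, the cytochrome c1 of complex III, which is given with the partner genes. The remaining 2, Ndufa4 and its relative Ndufa4l2, carry a complex I name although the Ndufa4 protein is a complex IV subunit. The genes were read beside the 13 protein-coding genes of the mitochondrial genome (the mt- genes), which supply other subunits of the same complexes.

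The respiratory chain is a row of protein complexes in the inner mitochondrial membrane that passes electrons from NADH (complex I) or succinate (complex II) through complex III to oxygen at complex IV, and pumps protons that drive the ATP synthase. Complexes I, III and IV are built from subunits of both genomes, so their assembly needs RNA from the nucleus and from the mitochondrion, while complex II is built from nuclear genes only. In arteries, smooth muscle cells and immune cells differ in how far they rely on respiration, and several complex IV subunits exist as alternative forms used by particular tissues.

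Single-cell RNA was measured with 10x Genomics libraries from carotid arteries of male C57BL/6J mice, 8 weeks of age, in which a guide wire had stripped the endothelium to induce intimal hyperplasia, the thickening of the inner vessel wall. The first library was made 14 days (2 weeks) and the second 28 days (4 weeks) after injury, 1 library per time and no uninjured control. The design text gives n = 18 for each time and does not state whether these mice were pooled. Before cells were released with papain and live nucleated cells were sorted, the adventitia had been dissected away per the labels' protocols, and the labels disagree on the vessel, naming the carotid artery in most places and aortic grafts in the extraction protocol.

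With 1 library per time there was no replicate check and no test. Values are counts of unique molecular identifiers (UMIs, molecules after removal of PCR copies) summed over the cells of a class and given per 1000000 UMIs of that class (CPM), with exact Poisson 95% intervals that cover counting error only. The end of the transcript that was read is not stated in the sources used here, so CPM were not divided by gene length and levels are compared between classes, not between genes. After filtering, 5152 cells at 2 weeks and 7422 at 4 weeks remained, with a median of 11762 and 8698 UMIs per cell. Barcodes were shared between the libraries in 8 cases, 6 of them among kept cells.

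Cell classes were rebuilt from clusters made without the 68 members and without the mt- genes, and were named from fixed marker lists, so "X-like" is the name of a marker pattern. The classes with the most cells were fibroblast-like (1144 at 2 weeks, 3017 at 4 weeks), thymocyte-like (1640, 823), macrophage-like (1237, 376), T cell-like (240, 993), NK-like (147, 262) and smooth muscle-like (229, 85). The smooth muscle-like cluster held all of the smooth muscle markers and 66.7% of the pericyte markers. The B cell-like class could be described at 4 weeks only (1168 cells). Thymocyte-like clusters were defined by genes of developing T cells such as Rag1 and Ptcra, and small clusters carried parathyroid (Pth, Gcm2) and airway (Bpifa1, Scgb3a2) genes. A cluster of 16 and 2 cells led by Tbata, Prss16 and Psmb11 is left unnamed, since its leading genes hold none of the thyroid markers of the list that matched it. The labels name no tissue other than the vessel, and the origin of these cells was not tested.

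Sequence is shown first for the promoters, since many respiratory chain genes are known targets of NRF1 and of ETS factors such as GABP. In RefSeq's promoter windows (GRCm38.p6, 250 bases before to 50 after the start), 54 of the 68 members had an entry. The letters GCGCANGCG (NRF1) and CCGGAAG (ETS) were searched on both strands, and matches of the 2 can share at most 1 base. Both motifs were found in 3 members, Cox6a1, Sdhd and Uqcr11, whose 150 bases upstream of the start are printed with the matches in capitals. Uqcrh, the hinge protein of complex III, is shown as a member with an ETS match only, and Cox5a, which had the widest range over classes of the ubiquitous members, as a member with neither match. The printed strand is that of the gene, 5′ to 3′. Cox6a1 lies at chr5:115348959-115349108 (minus strand), Sdhd at chr9:50603850-50603999 (minus), Uqcr11 at chr10:80406822-80406971 (minus), Uqcrh at chr4:116075071-116075220 (minus) and Cox5a at chr9:57521082-57521231 (plus). The NRF1 match of Uqcr11 begins in the last 5 bases printed and runs past the stretch.
Cox6a1: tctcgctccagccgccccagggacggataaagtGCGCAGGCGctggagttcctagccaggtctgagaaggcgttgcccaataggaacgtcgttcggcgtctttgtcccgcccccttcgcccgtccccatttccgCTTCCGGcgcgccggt
Sdhd: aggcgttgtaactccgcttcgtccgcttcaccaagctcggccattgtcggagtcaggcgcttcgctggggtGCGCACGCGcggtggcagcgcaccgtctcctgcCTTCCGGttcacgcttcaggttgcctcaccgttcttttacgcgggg
Uqcr11: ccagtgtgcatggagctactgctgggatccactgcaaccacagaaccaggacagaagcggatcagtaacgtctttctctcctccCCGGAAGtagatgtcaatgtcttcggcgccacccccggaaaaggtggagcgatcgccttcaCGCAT
Uqcrh: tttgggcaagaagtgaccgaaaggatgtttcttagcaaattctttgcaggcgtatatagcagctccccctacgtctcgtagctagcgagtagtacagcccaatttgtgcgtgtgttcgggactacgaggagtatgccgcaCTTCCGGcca
Cox5a: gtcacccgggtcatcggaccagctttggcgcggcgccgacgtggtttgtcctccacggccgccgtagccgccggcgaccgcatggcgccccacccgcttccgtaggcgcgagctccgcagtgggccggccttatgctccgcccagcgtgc

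The NRF1 letters stood in 13 of the 54 windows (24.1%) and the ETS letters in 11 (20.4%), with either motif in 21 (38.9%). Over all 27025 genes with a window of the same length, the shares were 7.03% for NRF1, 9.93% for ETS and 15.5% for either. Among the 2401 genes of at least 50 CPM that are no members, they were 17.4%, 20.5% and 33.5%. The members' share of ETS letters was therefore that of other expressed genes, and their share of NRF1 letters lay above it, as a description of letters and not of binding. By complex, NRF1 letters were found in 8 of 32 windows of complex I (among them Ndufa11, Ndufb4, Ndufs5 and Ndufs6), in 2 of 3 of complex II (Sdha and Sdhd), in 2 of 5 of complex III (Uqcr11 and Uqcrc1) and, leaving out alternative forms, in 1 of 9 of complex IV (Cox6a1, with 3 matches). None of the 4 alternative forms with a window, all of complex IV, held either motif.

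The members made up 1.27% of all UMIs at 2 weeks (908470 UMIs) and 1.21% at 4 weeks (880822), and the mt- genes 2.49% and 2.54%. A median cell held 133 and 97 member UMIs. In both libraries 59 members reached 50 CPM over all cells, 1 lay between 20 and 50 and 8 lay below 20. By the mean of the 2 libraries, the highest levels were those of the complex IV subunits Cox4i1 (785 CPM at 2 weeks, 811 at 4 weeks), Cox8a (653, 602), Cox6c (534.7, 440.0) and Cox7c (500.9, 416.0), and of Uqcrh (582, 632). Cox7a2l (412.8, 498) stood above Cox6c and Cox7c at 4 weeks. The 5 highest members of each library supplied 24.0% and 24.7% of the members' UMIs. The lowest were alternative forms: Cox7b2 had 0 UMIs in either library, Cox8c 1 and 0, Cox8b 72 and 24, Cox4i2 182 and 65, and Cox7a1 281 and 110.

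Nuclear respiratory chain RNA differed between the classes, and thymocyte-like cells held the highest share of the 6 classes with enough cells in both libraries. Their summed members came to 17658 CPM (interval 17596 to 17720) at 2 weeks and 18336 (18225 to 18448) at 4 weeks. Smooth muscle-like cells came next with 14288 (14162 to 14415) and 14840.0 (14605 to 15078). These were the first and second classes in both libraries.

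The other 4 classes lay closer together and did not keep their order. NK-like cells held 12494 and 11287 CPM, macrophage-like cells 11483 and 13104, fibroblast-like cells 10021 and 10999, and T cell-like cells 11529 and 10809. At 2 weeks the intervals of T cell-like (11346 to 11714) and macrophage-like cells (11432 to 11534) overlapped. The highest class exceeded the lowest 1.76-fold at 2 weeks and 1.70-fold at 4 weeks. Among classes seen in a single library, parathyroid-like cells (54 cells, 2 weeks) held 18441 CPM, B cell-like cells 9367 at 4 weeks, endothelial-like cells (40 cells, 2 weeks) 8936, and neutrophil-like cells (206 cells, 2 weeks) 5800.

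The mt- genes followed another order. Smooth muscle-like cells had the highest summed mt- level in both libraries (41571 and 39152 CPM) and fibroblast-like cells the lowest (19855 and 20887). Thymocyte-like cells, highest for the nuclear members, were the fifth of 6 for the mt- genes, with 24797 and 25358 CPM. B cell-like cells showed the reverse at 4 weeks, with 39321 mt- CPM beside their low nuclear level.

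Members per mt- UMI put these differences in a single figure for each class; the size of the ratio also carries how well each kind of RNA is captured, so only classes are compared. Thymocyte-like cells had 0.712 member UMIs per mt- UMI (interval 0.709 to 0.715) at 2 weeks and 0.723 (0.717 to 0.729) at 4 weeks. Smooth muscle-like cells had 0.344 and 0.379, so thymocyte-like cells exceeded them by 1.05 and 0.93 on the log2 scale. Fibroblast-like cells had 0.505 and 0.527, macrophage-like cells 0.409 and 0.454, NK-like cells 0.481 and 0.383, and T cell-like cells 0.411 and 0.356. B cell-like cells had the lowest ratio, 0.238, and neutrophil-like cells, low in both kinds of RNA, the highest of the named classes, 0.973 (0.930 to 1.02). Another 4 clusters (97 and 590 cells) were given no class by the marker lists. The Hbb-bs and C7 cluster among them (45 and 223 cells, median 1198 and 2535 UMIs) had higher ratios, 1.32 and 1.01. Its member level was 23003 and 18557 CPM. With each cell given equal weight, the excess of thymocyte-like over smooth muscle-like cells was 0.62 and 0.28 on the log2 scale.

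**Figure D1:**
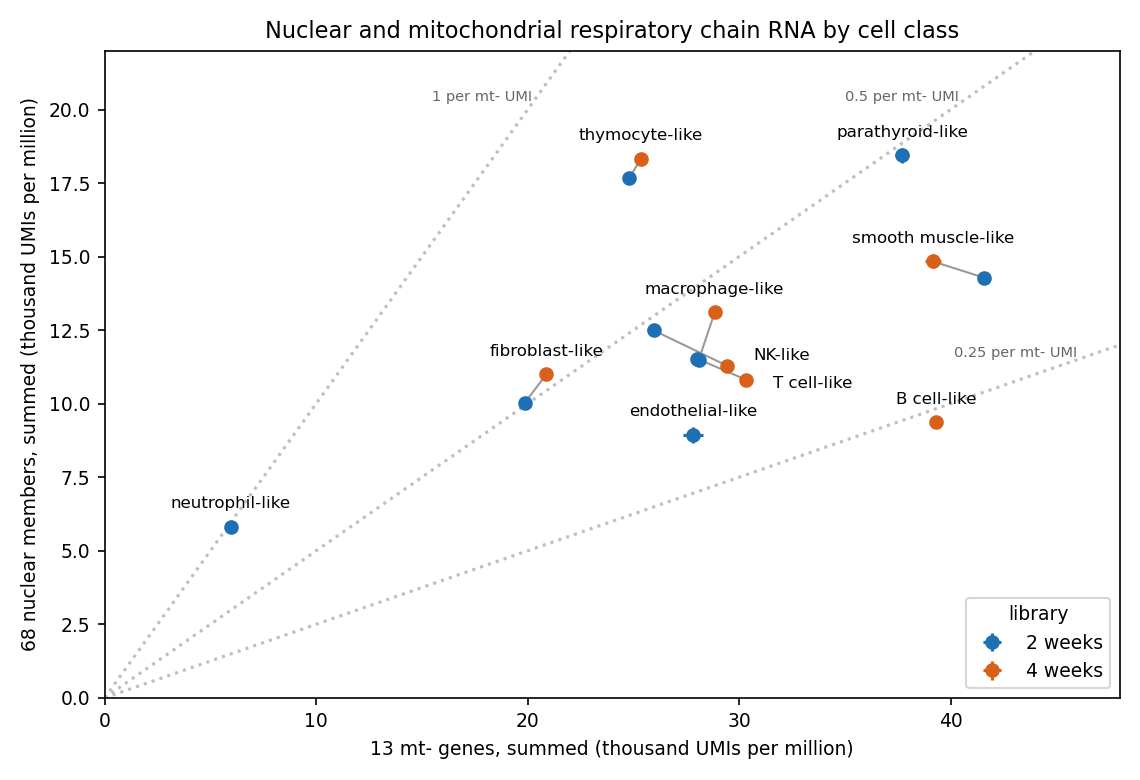
Summed CPM of the 68 nuclear members (vertical) against summed CPM of the 13 mt- genes (horizontal) per cell class, at 2 weeks (blue) and 4 weeks (orange), with 95% counting intervals, grey lines joining the times of a class and dotted lines of equal ratio. Among the classes seen at both times, thymocyte-like cells lie highest for the members and next to lowest for the mt- genes. Smooth muscle-like and B cell-like cells lie far to the right, and neutrophil-like cells lie near the line of 1 member UMI per mt- UMI.

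The same contrast was seen in each complex that mixes both genomes. In thymocyte-like cells complex I had 1.45 nuclear UMIs per UMI of the 7 mt-Nd genes at 2 weeks and 1.48 at 4 weeks, against 0.526 and 0.614 in smooth muscle-like cells. For complex III, counted without Cyc1 and with mt-Cytb as its mitochondrial part, the values were 1.38 and 1.26 against 0.453 and 0.450. For complex IV, counted with Ndufa4 and set against the 3 mt-Co genes, they were 0.578 and 0.584 against 0.328 and 0.344. The 19 ATP synthase genes of a fixed list, set against mt-Atp6 and mt-Atp8, gave 1.76 and 1.77 against 0.674 and 0.762.

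By complex, thymocyte-like cells had the highest nuclear sum of the 6 classes in each of the 4 complexes, and the class below them differed between complexes. Complex I summed to 7255 and 7608 CPM in thymocyte-like cells, 6280 and 6772 in smooth muscle-like cells and 4316 and 4885 in fibroblast-like cells. Complex II, succinate dehydrogenase, summed to 497 and 499.8 in thymocyte-like cells, 368 and 378 in macrophage-like cells, 318 and 342.5 in smooth muscle-like cells and 255 and 273 in fibroblast-like cells. Complex III, without Cyc1, summed to 2638 and 2782 in thymocyte-like, 2035 and 2135 in smooth muscle-like and 1482 and 1585 in fibroblast-like cells. Complex IV summed to 6753 and 6870 in thymocyte-like cells, 5186 and 5163 in smooth muscle-like cells, 4671 and 5239 in macrophage-like cells and 3678 and 3941 in fibroblast-like cells.

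Individual members mostly shared the pattern. Of 62 members with at least 20 CPM in some class of both libraries, 42 were highest in thymocyte-like cells at both times and 12 in smooth muscle-like cells at both times. Fibroblast-like cells were the lowest class for 17 of the 62 at both times. How many of all genes were highest or lowest in these classes was not counted, so these counts do not set the members apart. To compare with other genes, a gene was called when it differed by at least 0.32 on the log2 scale with an interval excluding 0, among genes of at least 50 CPM on average and 50 UMIs.

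Thymocyte-like over fibroblast-like, 54 of 59 tested members were called higher at 2 weeks and 52 of 59 at 4 weeks, where 54.6% and 54.2% of all tested genes were called higher too. The members' median log2 difference was 0.83 and 0.82, and that of all tested genes 0.48 and 0.46, which is the shift against which the members are to be read. The members not called at 2 weeks were Ndufs7, Ndufa13, Ndufb4, Ndufa7 and Cox7a2l, and at 4 weeks also Ndufa5 and Ndufb9. Summed over members, the log2 difference was 0.82 and 0.74, and with each cell given equal weight 0.47 and 0.34.

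Smooth muscle-like over fibroblast-like, 39 of 58 members were called higher at 2 weeks and 39 of 59 at 4 weeks, with 37.9% and 38.5% of all genes. Median differences were 0.46 and 0.40, against 0.13 and 0.16 over all genes. The largest difference was that of Sdhc, a membrane anchor of complex II, with a log2 difference of 1.06 and 1.24. Its level was 103 and 119 CPM in smooth muscle-like cells, 49.3 and 50.6 in fibroblast-like cells and 69.5 and 72.9 in thymocyte-like cells.

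Thymocyte-like over smooth muscle-like, 29 of 59 members were called higher at 2 weeks and 31 of 59 at 4 weeks, near the 49.8% and 47.3% of all genes. Called lower were 7 and 5 of 59, where 34.9% and 34.5% of all genes were called lower. Sdhc, Ndufa6 and Ndufa2 were called lower at both times. The members' medians were 0.29 and 0.35 and those of all genes 0.31 and 0.27. The medians and the shares called higher were thus close to those of all genes, while fewer members than genes at large were called lower.

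**Figure D2:**
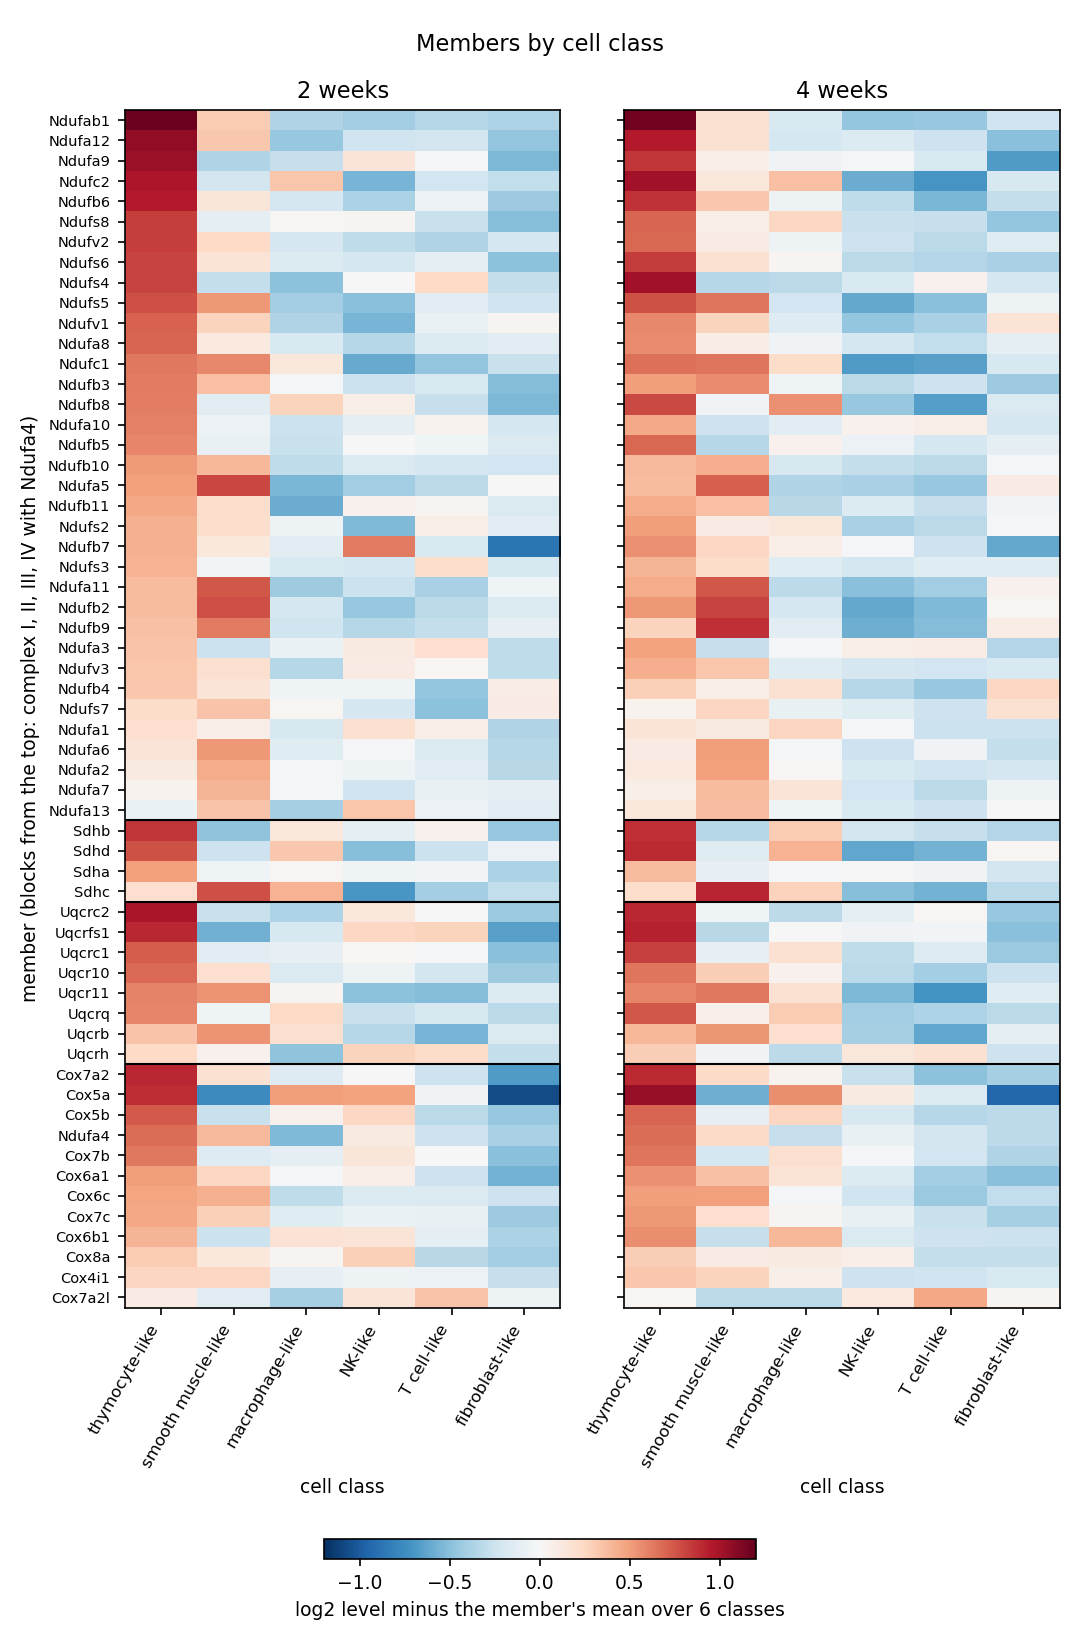
Heat map of members of at least 50 CPM in both libraries (rows, in blocks by complex) over 6 cell classes (columns) at 2 weeks (left) and 4 weeks (right), coloured by the log2 level minus the member's own mean over the classes. The thymocyte-like column is red for most rows in both libraries, Cox5a is lowest in the fibroblast-like and smooth muscle-like columns, and a group of complex I rows with Ndufa11, Ndufb2, Ndufb9 and Ndufa5 is highest in the smooth muscle-like column.

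Cox5a (chromosome 9, 57521274 to 57532426, plus strand, mm10) is a matrix-side complex IV subunit that joins early in assembly, and it had the widest range of the members expressed in every class. Its level was 515 and 562 CPM in thymocyte-like cells, 395 and 401 in macrophage-like cells, 389.8 and 293.5 in NK-like cells. T cell-like cells held 272 and 243. In smooth muscle-like cells it was 165 and 181, and in fibroblast-like cells 133 and 142. Thymocyte-like over fibroblast-like, its log2 difference was 1.96 and 1.99. Smooth muscle-like cells, high for most members, were thus near the bottom for Cox5a, and all thymocyte-like and macrophage-like values lay above all smooth muscle-like and fibroblast-like values.

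Ndufab1 (chromosome 7, 122085403 to 122101886), the mitochondrial acyl carrier protein and a complex I subunit, stood at 274 and 279 CPM in thymocyte-like cells. The level was 149 and 142 in smooth muscle-like cells, 93.8 and 106 in fibroblast-like cells and 90.7 in NK-like cells at both times. Ndufa9 (chromosome 6, 126821721 to 126849136), an accessory subunit of the peripheral arm, stood at 111 and 118 in thymocyte-like cells and at 37.0 and 40.7 in fibroblast-like cells. Both genes were thus highest in thymocyte-like cells, and their other classes differed less.

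Complex I members split over the classes. Ndufa5, Ndufa11, Ndufb2 and Ndufb9, accessory subunits, were highest in smooth muscle-like cells. Ndufb9 reached 335 and 434.5 CPM there, against 277 and 286 in thymocyte-like and 203 and 253 in fibroblast-like cells. Ndufa11 reached 248 and 262 there, against 193 and 213 in thymocyte-like and 143 and 162 in fibroblast-like cells. In contrast Ndufc2, a membrane arm subunit, stood at 259 and 279 in thymocyte-like cells and 114 and 153 in smooth muscle-like cells.

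The complex III catalytic subunit Uqcrfs1, the Rieske iron-sulphur protein, and the core protein Uqcrc2 were highest in thymocyte-like cells. Uqcrfs1 stood at 209 and 220.3 CPM there, at 75.1 and 92.0 in smooth muscle-like cells and at 71.1 and 81.6 in fibroblast-like cells. The small subunit Uqcrb, in contrast, was highest in smooth muscle-like cells with 307 and 331 CPM, against 267 and 303 in thymocyte-like cells. Cox7a2l, known as a factor for joining complexes III and IV into supercomplexes, was highest of the 6 classes in T cell-like cells. It stood at 549 and 659 CPM there, against 466 and 486 in thymocyte-like cells. Whether its protein joins them in this strain was not examined.

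Of 23 electron carriers, partners and regulators on the fixed lists, 17 stood higher in thymocyte-like than in fibroblast-like cells in each library, 17 and 14 of them with intervals apart. The same count was not made over all genes. By the call rule above, 54.6% and 54.2% of all tested genes were higher in thymocyte-like cells, so the count does not set these genes apart. The ATP synthase list summed to 9291 and 9335 CPM in thymocyte-like cells and 4228 and 4551 in fibroblast-like cells. Cytochrome c (Cycs), the carrier between complexes III and IV, stood at 373 and 387 against 81.6 and 75.5, and Cyc1, the cytochrome c1 of complex III, at 173 and 163.5 against 63.0 and 71.3. Tfam, which packages and transcribes mitochondrial DNA, stood at 78.9 and 74.7 against 23.6 and 26.3, and Nrf1 at 81.8 and 86.3 against 18.0 and 20.8. Lower in thymocyte-like cells at both times were Esrra (6.94 and 7.59 against 14.6 and 10.2), Etfb (75.9 and 90.9 against 80.5 and 99.5), Myc (8.17 and 17.1 against 48.5 and 25.99), AA467197 and Ppargc1a, with the intervals of Etfb overlapping at both times and those of Esrra at 4 weeks. Pprc1 was lower at 2 weeks and Etfa at 4 weeks. The coactivator Ppargc1a was highest in parathyroid-like cells (22.5 CPM) and at most 5.82 in the other classes described.

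The thymocyte-like level was not even within the class. Cells at or above the class median of UMIs held 18498 member CPM at 2 weeks and 19412 at 4 weeks, and cells below it 12112 and 11890. The cluster led by histone genes (Hist1h3c), a cycling pattern, held 18944 and 20195 CPM, and the Ptcra cluster (led by Myl10) 18234 and 20026. The Insl5 and Rag1 cluster, shallower with a median of 3343 and 2739 UMIs per cell, held 12901 and 13722. The Spo11 cluster, with a median of only 791 and 968 UMIs, held 7089 and 9284, and its mt- level was 61671 and 51014. Depth and cycling thus moved with the member level, and their part in it was not tested.

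Macrophage-like and fibroblast-like clusters differed less among themselves. The Arg1 macrophage-like cluster held 12908 and 13904 member CPM and the Folr2 cluster 10494 and 12275, while their mt- order was the reverse (25433 and 26250 against 29932 and 31540.0). Among fibroblast-like clusters the members ranged from 9620 (the Ptx3 cluster) to 11804 (the Fmod and Comp cluster) at 2 weeks. Across cells, the share of members and the share of mt- UMIs had a Pearson's r of -0.46 and -0.49 over the 1640 and 823 thymocyte-like cells, -0.38 and -0.32 over the 240 and 993 T cell-like cells and -0.12 and -0.17 over the 1144 and 3017 fibroblast-like cells. It was near 0 over the smooth muscle-like cells (-0.02 and -0.06; 229 and 85 cells). Both shares have the cell's own UMI total as denominator, so the points share depth.

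**Figure D3:**
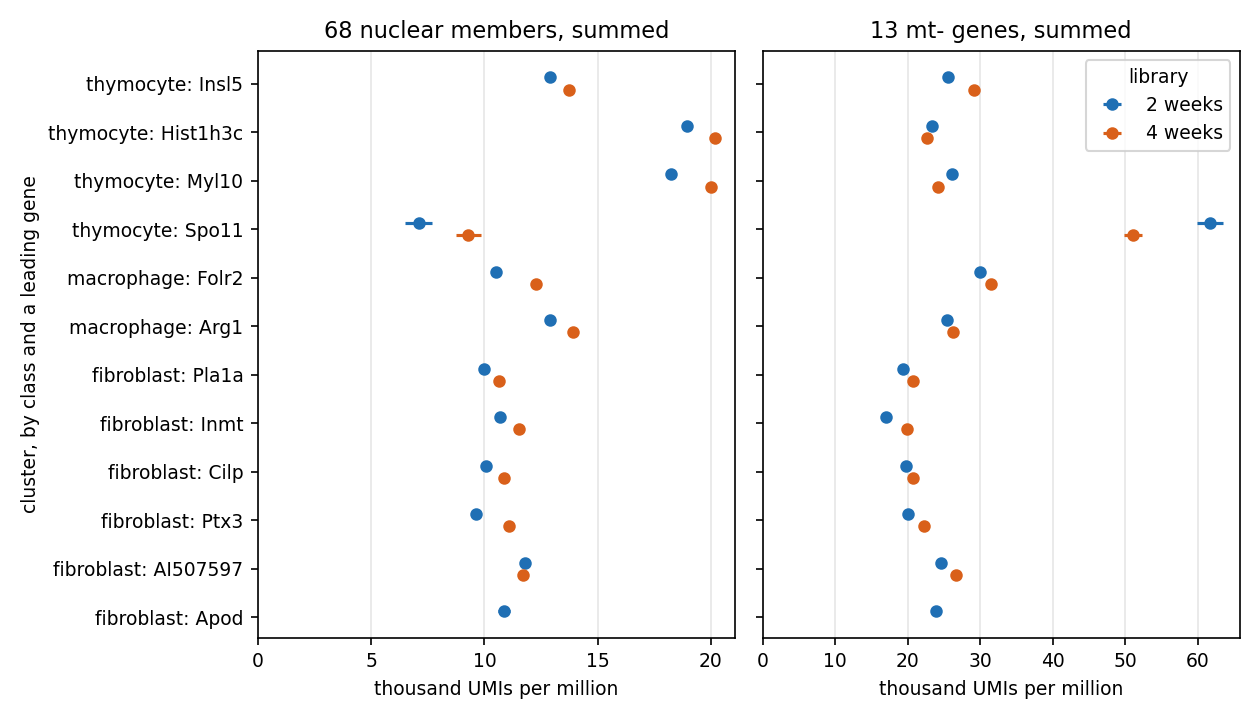
Summed CPM of the 68 nuclear members (left) and the 13 mt- genes (right) by cluster of the thymocyte-like, macrophage-like and fibroblast-like classes, at 2 weeks (blue) and 4 weeks (orange), with 95% counting intervals; only clusters of at least 40 cells in a library are drawn. The Hist1h3c and Myl10 thymocyte-like clusters are highest for the members, and the Spo11 cluster is lowest for the members and highest for the mt- genes.

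Neutrophil-like cells stood apart at 2 weeks. Relative to macrophage-like cells, 46 of 51 tested members were called lower, where 40.8% of all tested genes were called lower. The members' median log2 difference was -1.13 and that of all genes -0.12. Ndufc2 had the largest difference, at 28.4 CPM against 167, a log2 difference of -2.55. The 5 members not called were Ndufb6, Cox7a2, Ndufb9, Ndufa7 and Cox8a, and Cox8a stood at 600.0 CPM in neutrophil-like against 671 in macrophage-like cells. Neutrophil-like mt- genes were low as well, at 5963 CPM in sum.

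Between the times, the members moved in different directions in different classes, by small amounts. Summed members were higher at 4 weeks in macrophage-like cells by 0.19 on the log2 scale (interval 0.18 to 0.20), in fibroblast-like cells by 0.13 (0.13 to 0.14) and in thymocyte-like cells by 0.05. The sums were lower by these counts in NK-like (-0.15) and in T cell-like cells (-0.09). With 85 cells at 4 weeks, smooth muscle-like cells are given as values only, with a log2 ratio of 0.05. In these libraries a time and a library are the same thing and cannot be told apart.

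In macrophage-like cells 11 of 59 tested members were called higher at 4 weeks and 0 lower. Over all tested genes 13% were called higher and 20% lower. The members' median was 0.21 and that of all genes -0.01. Of the 11, 10 were complex I genes, with Ndufa9 (44.5 to 63.2 CPM, log2 ratio 0.51), Ndufa5 (64.4 to 90.6, 0.49) and the iron-sulphur subunit Ndufs8 (64.6 to 88.6) at the top. The other was Ndufa4, from 224 to 299 CPM (0.42). In sum, complex I was higher by 0.22, complexes III and IV by 0.17 each and complex II by 0.04.

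The lowest ratios in macrophage-like cells were those of Sdhc (-0.08), Ndufb2 (-0.07) and Ndufa3 (-0.04), each with an interval that includes 0. Both macrophage-like clusters were higher at 4 weeks, the Folr2 cluster by 0.23 and the Arg1 cluster by 0.11. The mt- genes differed less, by 0.04 in sum, so members per mt- UMI were higher by 0.15. Beside the members, 9 of 33 tested mitochondrial ribosome genes, 2 of 17 ATP synthase genes and 3 of 6 assembly factors were called higher and 0 of each lower. Of 12 glycolysis genes 5 were called lower, with Tpi1 at -0.65 and the glucose transporter Slc2a1 at -0.61, and 1 higher. Immediate early genes, which rise when tissue is dissociated, were called lower in 10 of 11 (Egr1 -1.57, Atf3 -1.54), and their part in the members' ratios was not tested.

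In fibroblast-like cells 4 of 56 tested members were called higher and 0 lower, beside 8.32% and 10.8% of all genes. They were all complex I genes: the core iron-sulphur subunit Ndufs7 (102 to 138 CPM, log2 ratio 0.44), Ndufb10 (161 to 217, 0.43), Ndufa5 (93.8 to 124, 0.41) and Ndufb7 (105 to 134, 0.34). The lowest ratios were those of Cox6c (446 to 396, -0.17), Ndufa3 (-0.15) and Uqcrq (-0.07). The members' median was 0.16 and that of all genes 0.03. The largest cluster of the class differed between the 2 times, the Ptx3 cluster at 2 weeks (483 of 1144 cells) and the Pla1a cluster at 4 weeks (1297 of 3017).

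Within fibroblast-like clusters the members' log2 ratio was 0.20 in the Ptx3 cluster, 0.09 in the Pla1a cluster, 0.11 in both the Inmt and the Cilp cluster, 0.25 in the Apod cluster and -0.01 in the Fmod and Comp cluster. Of 10 immediate early genes 6 were called lower, with Atf3 at -2.68. The hexokinase Hk2 was the only 1 of 9 tested glycolysis genes called, at -0.64.

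In thymocyte-like cells 0 of 59 members were called in either direction, beside 4.32% of genes called higher and 4.64% lower. The highest ratios were those of Ndufa13 (0.24), Ndufb7 (0.21) and Ndufs4 (0.20), and the lowest those of Ndufa1 (-0.21), Cox6c (-0.09) and Sdha (-0.09). The sum turned to -0.02 when each cell had equal weight. Within the clusters the ratio was 0.09 in the Insl5 cluster, 0.09 in the histone cluster, 0.14 in the Ptcra cluster and 0.39 in the Spo11 cluster.

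In NK-like cells 2 of 56 members were called higher and 9 lower, beside 6.46% and 34.7% of all genes. The median of all genes was -0.22 and that of the members -0.10, so relative to other genes the members were not lower. Ribosomal protein genes took 28.4% of NK-like UMIs at 2 weeks and 37.4% at 4 weeks. With the genes' median ratio as scale the sum of the members was 0.07 higher, and without mt- and ribosomal protein UMIs 0.06 higher, so its direction depends on the scale. The lowest ratios on the CPM scale were those of the membrane arm subunits Ndufb8 (175 to 116 CPM, -0.59) and Ndufb7 (297 to 202, -0.56) and of Ndufa13 (428 to 308, -0.47).

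Other members called lower in NK-like cells were Uqcrc1, Cox5a, Ndufv3, Ndufa1, Cox5b and Cox6b1, and Ndufs7 (83.0 to 109.6, 0.40) and Ndufa8 (86.4 to 112, 0.37) were called higher. The mt- genes went the other way, with a sum higher by 0.18 and with mt-Nd2 (0.44) and mt-Nd4 (0.41) called higher. Members per mt- UMI were lower by 0.33, a ratio that no scale of CPM changes. All 3 tested proliferation genes were called lower beside this, with Ube2c at 142 and 2.90 CPM and Mki67 at 102 and 13.5. The part of cycling cells in the members' ratios was not tested.

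In T cell-like cells 1 of 57 members was called higher and 9 lower, beside 8.82% and 49.4% of all genes. The median of all genes was -0.33 and that of the members -0.14. Ribosomal protein genes took 26.6% and 40.1% of UMIs. The sum of the members was 0.23 higher with the genes' median ratio as scale and 0.22 higher without mt- and ribosomal protein UMIs. Ndufa1 (160 to 113 CPM, -0.50), Ndufb8 (138 to 101, -0.46) and Ndufc2 (113 to 84.7, -0.42) had the lowest ratios, and Ndufs7 (67.6 to 102, 0.59), Ndufa6 (194 to 235, 0.27) and Cox7a2l (0.26) the highest.

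T cell-like cells lay in different clusters at the 2 times. The Dapl1 cluster, low in members (10067 and 10019 CPM), held 35 of 240 cells at 2 weeks and 606 of 993 at 4 weeks. At 2 weeks most cells lay in the Cd5 and Tox cluster (110) and the Il17a cluster (82), with 12029.6 and 11841 CPM. Within clusters the log2 ratio of the members was -0.01 there, 0.10 in the Il17a cluster and 0.04 in the Cd5 and Tox cluster. With clusters weighted equally the ratio was 0.05. The mt- genes were higher by 0.11 in sum, and members per mt- UMI lower by 0.21.

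**Figure D4:**
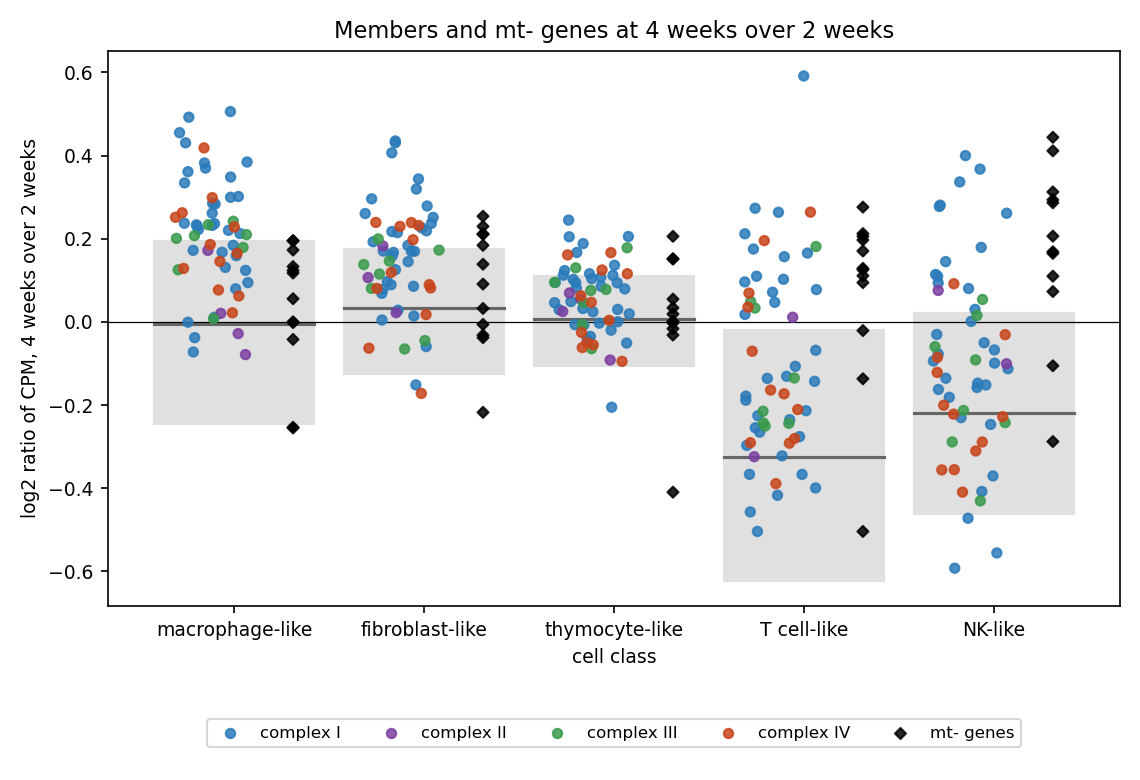
Change in CPM from 2 to 4 weeks, as a log2 ratio, for each tested member (circles, coloured by complex) and mt- gene (black diamonds) in 5 cell classes; the grey box spans the middle quartiles of all tested genes and its line is their median. Members lie mostly above 0 in macrophage-like and fibroblast-like cells and mostly below 0 in T cell-like and NK-like cells, where the line for all genes is lower still (-0.33 and -0.22) and most mt- genes lie above 0.

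Of 54 members tested in all 5 classes, 9 had a higher CPM at 4 weeks in each of them (16.7%) and 0 a lower one in each. Of the 1432 genes tested in all 5, 8.80% were higher and 11.8% lower in each. With the genes' median ratio as scale, 24 of the 54 members (44.4%) and 17.9% of the genes were higher in each. The 9 members on the CPM scale were Ndufa5, Ndufa8, Ndufa12, Ndufb3, Ndufb10, Ndufs7, Ndufv2, Uqcrb and Cox7a2l. Ndufs7, which carries the iron-sulphur cluster next to the ubiquinone site, was called higher in 3 of the 5 (fibroblast-like, NK-like and T cell-like). Among the mt- genes, mt-Nd3 was lower at 4 weeks in all 5 classes, from -0.50 in T cell-like cells to -0.22, each with an interval excluding 0. In the same cells mt-Nd1, mt-Nd4 and mt-Cytb were higher in all 5, again with intervals excluding 0. The mitochondrial counterparts within complex I thus had ratios of both signs, although mt- RNAs are cut from long shared transcripts.

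Alternative forms of subunits were expressed in few classes, and small counts of each in other classes set the level at which free RNA may contribute. Cox4i2, the form of the Cox4 subunit known from lung and low oxygen (chromosome 2, 152754173 to 152765037), stood at 32.6 CPM (interval 26.9 to 39.2) and 22.5 (14.3 to 33.8) in smooth muscle-like cells. That was 3.29% and 2.12% of the pair with Cox4i1. Fibroblast-like cells as a whole held 2.01 and 0.905 CPM, and thymocyte-like cells 0.727 and 0.706. Within the fibroblast-like class the Fmod and Comp cluster held 29.4 and 21.1, so Cox4i2 was at a similar level in these 2 groups of cells and low in the rest.

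Ndufa4l2, the relative of Ndufa4 known as a target of hypoxia-inducible factor (chromosome 10, 127514967 to 127517154), stood at 42.2 CPM in the fibroblast-like class at 2 weeks and at 22.6 by 4 weeks, and at 0.392 and 0.176 in thymocyte-like cells. Its share of the pair with Ndufa4 in fibroblast-like cells was 14.5% and 7.17%. Its level was lower at 4 weeks in each of the 6 fibroblast-like clusters: 194 to 159 CPM in the Fmod and Comp cluster, where the intervals overlapped (173 to 217 and 140.2 to 179.8), 57.5 to 34.7 in the Inmt cluster, 47.5 to 28.1 in the Cilp cluster, 28.6 to 17.1 in the Ptx3 cluster (where 1 cell held 39.6% of the UMIs at 4 weeks), 63.6 to 15.0 in the Apod cluster and 5.84 to 2.21 in the Pla1a cluster. Smooth muscle-like cells held 45.1 CPM at 2 weeks, from 155 UMIs of which 1 cell held 20%, and 3.92 at 4 weeks, from 4 UMIs. Ndufa4 itself stood at 248 and 293 CPM in fibroblast-like cells, so the pair moved in opposite directions there.

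The third gene of this family in the fixed lists, AA467197 (Nmes1), is an Ndufa4 homolog known from inflamed tissue and is no member. It stood at 160 and 252 CPM in macrophage-like cells, with 363 and 449 in the Arg1 cluster and 19.4 and 47.7 in the Folr2 cluster, and at 467 in neutrophil-like cells at 2 weeks. Ndufa4 in neutrophil-like cells was 64.3 CPM, its lowest level of the classes described. In NK-like cells AA467197 stood at 49.99 and 12.6 CPM. The Ndufa4 family was thus divided over the classes, with Ndufa4 highest in parathyroid-like (558 at 2 weeks) and thymocyte-like cells (515 and 576), Ndufa4l2 in the Fmod and Comp cluster, and AA467197 in neutrophil-like and Arg1 macrophage-like cells.

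Cox6a2, the heart and muscle form of Cox6a (chromosome 7, 128205435 to 128206387), stood at 664 CPM (interval 552 to 792) at 2 weeks and 1172 (1034 to 1324) at 4 weeks in the plasmacytoid dendritic-like cluster of 15 and 20 cells. It rested on 124 and 259 UMIs, of which 1 cell held 29.0% and 15.8%, and thymocyte-like cells held 2.63 and 2.83 CPM. Parathyroid-like cells held 63.3 CPM, 12.4% of the pair with Cox6a1. In smooth muscle-like cells 0 UMIs of Cox6a2 were counted in either library, which allows up to 0.873 and 2.94 CPM (3 counts of each library's total for the class).

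Cox6b2, known as the testis form, was highest of the 6 classes in thymocyte-like cells, with 12.6 CPM (11.1 to 14.4) and 15.2 (12.1 to 18.8), or 2.53% and 2.79% of the pair with Cox6b1. The Fmod and Comp cluster held 9.79 and 26.1 CPM. Cox7a1, the heart and muscle form of Cox7a, was highest in macrophage-like cells with 7.88 and 5.72 CPM, and stood at 4.81 and 3.71 in thymocyte-like cells. Most UMIs of Cox8b at 2 weeks, 62 of 72, came from the unnamed Tbata and Prss16 cluster of 16 cells (260.5 CPM), with 30.6% of them in a single cell. These counts are small, and a time difference in them was not read.

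**Figure D5:**
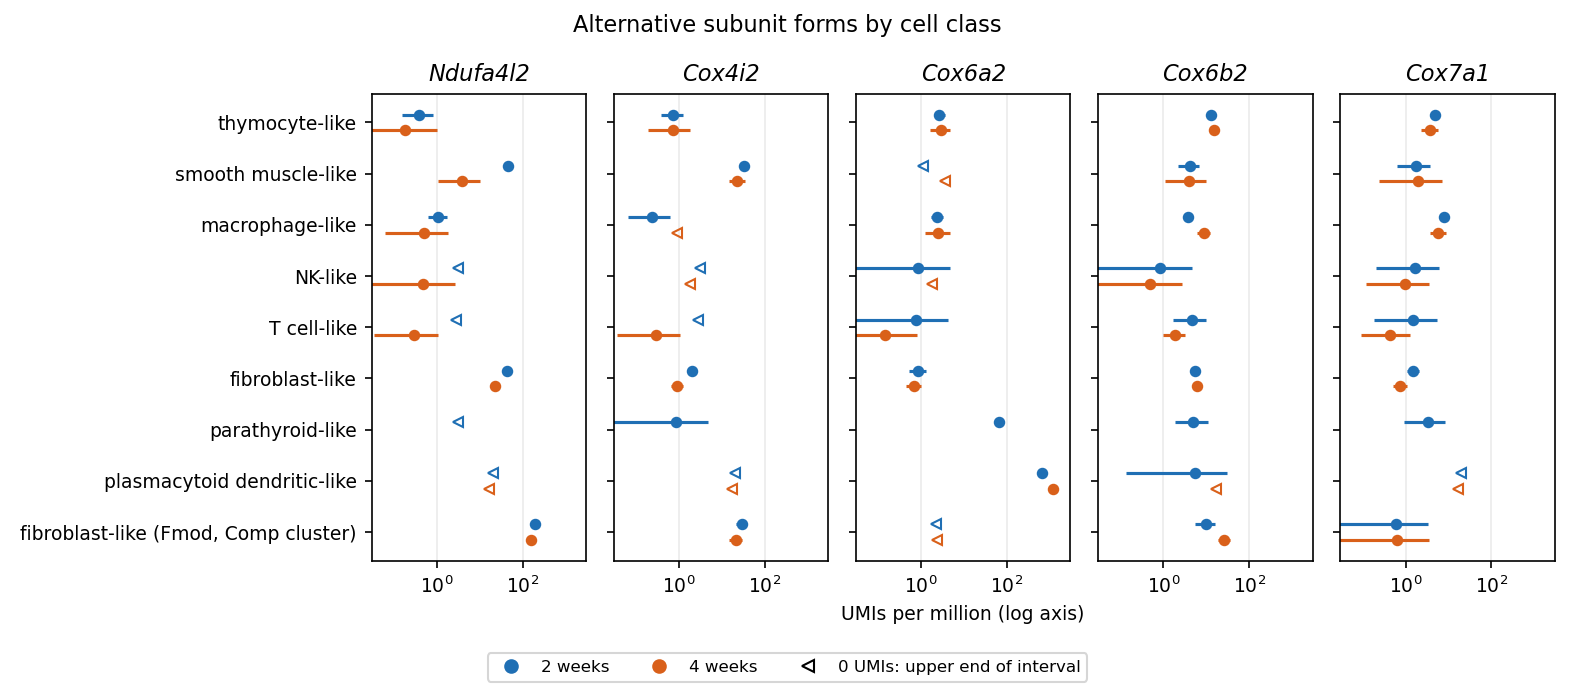
CPM (log axis) of 5 alternative subunit forms in 6 cell classes and 3 further groups of cells, at 2 weeks (blue) and 4 weeks (orange), with 95% counting intervals; open triangles mark the upper end of the interval where 0 UMIs were counted. Ndufa4l2 and Cox4i2 are highest in the Fmod and Comp cluster or in smooth muscle-like cells, and Cox6a2 exceeds 600 CPM only in plasmacytoid dendritic-like cells among the groups drawn.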

How the data were processed

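The deposited matrices hold UMI counts without normalization. Per the file headers Cell Ranger 4.0.0 wrote them, with reads placed on mm10 per the submitters' processing notes; the aligner's settings are not given in the sources used here. Gene positions are those of GENCODE M21, in mm10, and promoters those of RefSeq (GRCm38.p6). The members and lists were chosen with earlier results of these data known. The labels gave each library its time.

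Barcodes with under 300 genes or 500 UMIs (54 at 2 weeks, 73 at 4 weeks) and cells above 10% mt- UMIs (383, 483) were removed, then the cells with the highest Scrublet scores, as many as the usual doublet rate of the platform gives (275, 587; the caller's own threshold marked 74 and 277). Clustering used scanpy 1.11.5, leidenalg 0.10.2 and igraph 0.11.9, intervals scipy 1.17.1 and figures matplotlib 3.10.9 (Python 3.11.15), with 2000 variable genes, 30 principal components, 15 neighbours and Leiden resolution 1, giving 30 clusters over both libraries without batch correction. Classes were rebuilt and may differ from the study's.

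Levels were described for classes of at least 40 cells and times compared for classes of at least 100 cells in each library (alternative forms, and ratios within clusters, are also given for smaller clusters), with exact conditional binomial 95% intervals of each ratio. The script was tested on simulated data. Named were the 3 tested members with the highest and lowest ratio per class, the 5 with the highest and lowest level and the widest range over classes, every member of a pair of forms, the mt- genes and 2 genes per list; members outside this rule (among them Ndufa11, Ndufb9, Ndufc2, Uqcrfs1 and Sdhc) were chosen after their values were seen. Protein sequences were not used here. Alternatives changed 1 choice at a time, and that of cells at or above 2700 UMIs was chosen after seeing the data.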

Additional observations from a re-analysis of the deposited data

Results flagged for a closer look

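The direction of the members' change between the libraries differed between classes. On the log2 scale of summed CPM, 4 weeks over 2 weeks, the members stood at 0.1344 in fibroblast-like, 0.1906 in macrophage-like and 0.05441 in thymocyte-like cells, and at -0.1466 in NK-like and -0.09299 in T cell-like cells. With 1 library per time this difference was not tested. In NK-like and T cell-like cells the direction turned under other scales, and in T cell-like cells also with clusters weighted equally.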

How the results depend on the processing

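No paired analysis was possible because each time has 1 library. Cell number limits mostly the smaller classes: NK-like and T cell-like cells at 2 weeks and smooth muscle-like cells at 4 weeks have few cells. Depth was lowest in thymocyte-like cells among the 6 classes, with a median of 4787 and 3009 UMIs per cell. NK-like cells were not named by the markers with a limit of 5% mt- UMIs, with no such limit, without doublet removal, at Leiden resolution 2 or when the libraries were clustered separately, so gave no value there. Where a value moved, the cause was not tested. For the 3 members with the highest and the 3 with the lowest ratio in each of 5 classes (30 ratios), 270 values were recomputed. Of these, 240 stayed within their counting interval and 30 moved beyond it. Among the ratios that had been called, 0 changed sign. Sign changes of ratios that had not been called were not counted.

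Values are log2 ratios, 4 weeks over 2 weeks, of summed members or summed mt- genes, then members called, then the difference thymocyte-like over fibroblast-like in members and thymocyte-like over smooth muscle-like in members per mt- UMI (the last 2 at 2 and 4 weeks).

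As reported, the members gave -0.1466 (NK-like), -0.09299 (T cell-like), 0.1344 (fibroblast-like), 0.1906 (macrophage-like) and 0.05441 (thymocyte-like). The mt- genes gave 0.1817, 0.1149, 0.07309, 0.03834 and 0.0323 in the same order.

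With CPM counted without mt- and ribosomal protein UMIs, the members turned to 0.06425 in NK-like and 0.2175 in T cell-like cells and moved to 0.1676 in fibroblast-like, 0.2578 in macrophage-like and 0.03652 in thymocyte-like cells. The mt- genes moved to 0.3926, 0.4254, 0.1063, 0.1056 and 0.01442. Called higher were 6 (NK-like), 21 (T cell-like) and 18 (macrophage-like) members, and lower 2 and 0 in NK-like and T cell-like cells. Thymocyte-like over fibroblast-like was 0.986 and 0.8549.

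With median ratio scaling the members turned to 0.07209 in NK-like and 0.2329 in T cell-like cells and were 0.102 in fibroblast-like cells, and the mt- genes were 0.4004, 0.4408 and 0.04074. Called higher were 8 and 22 members in NK-like and T cell-like cells, and lower 2 and 0.

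With clusters weighted equally the members turned to 0.04564 in T cell-like cells and were 0.1246 in fibroblast-like, 0.1667 in macrophage-like and 0.1764 in thymocyte-like cells. The mt- genes were 0.08424, 0.09719 and 0.06056 and turned to -0.05894 in thymocyte-like cells. Members were counted here by a mean ratio of at least 0.32 in size, without an interval, so the counts are not calls. In T cell-like cells 12 were higher and 1 lower. In thymocyte-like cells 16 were higher, with the shallow Spo11 cluster weighing as much as each other cluster.

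With each cell weighted equally the members were -0.07011 in NK-like and 0.1017 in fibroblast-like cells and turned to -0.02193 in thymocyte-like cells. The mt- genes were 0.06579 in fibroblast-like, 0.1777 in macrophage-like and 0.1733 in thymocyte-like cells. The class differences were 0.4654 and 0.3417 over fibroblast-like cells and 0.6182 and 0.277 over smooth muscle-like cells.

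In cells at or above the thinning depth, an alternative chosen after seeing the data, the thymocyte-like members were 0.1002 and the mt- genes turned to -0.01592, and macrophage-like mt- genes were 0.02026. The class differences were 0.837 and 0.8023, and 1.089 and 1.064.

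At Leiden resolution 2 the members were 0.1553 in fibroblast-like, 0.1406 in macrophage-like (7 called higher) and 0.01924 in thymocyte-like cells. The mt- genes were 0.1402 in T cell-like, 0.007998 in macrophage-like and 0.09748 in thymocyte-like cells. The class differences were 0.7788 and 0.6427, and 1.017 and 0.7947.

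With separate clustering of the libraries, macrophage-like members were 0.1453 (1 called lower), and mt- genes 0.1047 in macrophage-like and 0.06387 in fibroblast-like cells. The class difference was 0.8251 at 2 weeks over fibroblast-like and 0.9007 at 4 weeks over smooth muscle-like cells.

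With a limit of 5% mt- UMIs, macrophage-like members were 0.1364 (5 called higher, 1 lower), fibroblast-like mt- genes 0.0938, and thymocyte-like mt- genes turned to -0.01709. The class differences were 0.829 and 0.7583, and 0.9473 at 2 weeks over smooth muscle-like cells.

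With a limit of 20%, 0 NK-like and 4 T cell-like members were called higher, macrophage-like members were 0.1758, and mt- genes 0.04678 (fibroblast-like), 0.02445 (macrophage-like) and 0.04229 (thymocyte-like). The difference over smooth muscle-like cells was 1.242 at 2 weeks.

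With no limit, T cell-like members were -0.02922 (6 called higher, 5 lower), and mt- genes 0.06198 (T cell-like), 0.06688 (fibroblast-like), 0.07219 (macrophage-like) and 0.02248 (thymocyte-like). The class differences were 0.7996 and 0.7179, and 1.334 at 2 weeks over smooth muscle-like cells.

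With no doublet removal the members were -0.06603 in T cell-like (2 called higher, 5 lower) and 0.1564 in fibroblast-like cells (7 called higher). The mt- genes were 0.0936 (T cell-like), 0.07947 (fibroblast-like) and 0.01165 (thymocyte-like), and the class differences 0.8009 and 0.6967.

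With calls past 1.5-fold, 0 members were called higher in NK-like, fibroblast-like and macrophage-like cells, 1 lower in NK-like and 0 lower in T cell-like cells. Fibroblast-like cells had 3 members called lower with no minimum CPM and 1 with a minimum of 10 CPM.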
